A study of Danio rerio with 6 samples.

Results

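The genes described here make, bind and break down retinoic acid (RA). They were chosen by name as 10 genes of the pathway, *cyp26a1*, *cyp26b1*, *cyp26c1*, *aldh1a2*, *aldh1a3*, *rdh10a*, *dhrs3a*, *dhrs3b*, *crabp2a* and *crabp2b*. All 10 are among the 13466 genes of the deposited count table, and all 10 passed the filter on low counts. RNA-seq was carried out on pools of whole zebrafish embryos at 18hpf (hours post fertilization), with chorion and yolk removed. There were 3 libraries from homozygous *hoxb1b* mutants (allele *um197*, a germline mutation of a paralog group 1 *hox* gene) and 3 from wildtype embryos. Whether each library had its own pool of embryos, and the wildtype strain, are not given in the sources used here, so p-values measure the spread between these libraries, which may be technical.

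RA is a small diffusible molecule made from vitamin A, and in the early embryo it tells cells of the hindbrain and trunk how far back along the body axis they lie. Retinol dehydrogenases such as Rdh10 oxidise retinol to retinaldehyde, and the retinaldehyde dehydrogenases Aldh1a2 and Aldh1a3 convert that to RA. Dhrs3 enzymes run the first step backwards, from retinaldehyde to retinol. Crabp2 proteins bind RA inside the cell and carry it to nuclear receptors, and Cyp26 enzymes oxidise RA so that it is cleared. In the hindbrain, RA made in the neighbouring mesoderm is shaped into a gradient by Cyp26 enzymes in the rhombomeres, and *hoxb1b* is among the genes switched on by RA. Since whole embryos were sequenced, fewer cells of a type and less RNA per cell cannot be told apart, nor can the tissue in which a transcript changed.

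Total counts lay between 19139322 and 29146812 per library. Expression is given as CPM, the read count scaled to the TMM-normalised library size. Each log2 fold change sets mutants over wildtype and comes, with its standard error (SE), from edgeR's quasi-likelihood test, with p-values adjusted by Benjamini-Hochberg over 12471 tested genes. The spread between libraries of a genotype was small. The common coefficient of variation beyond counting noise was 1.85%, and 66.2% of all tested genes had an adjusted p under 0.05. Transcripts of the mutated gene were not lost. *hoxb1b* stood at 85.3, 84.2 and 83.8 CPM in mutant libraries, against 70.6, 66.4 and 70.4 CPM in wildtype libraries, a log2 fold change of 0.29, so the count of this gene does not check the labels.

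At an adjusted p under 0.05, 7 of the 10 RA genes were higher and 3 were lower in the mutants. Among all tested genes 32.6% were higher and 33.6% lower by the same rule, so passing it is common in these libraries and the size of each change matters more. With a change above 2-fold required as well, 1 RA gene was higher (*aldh1a3*) and 1 was lower (*cyp26b1*). By that rule 8.36% of all tested genes were called, 1.7% higher and 6.66% lower. The median log2 fold change was 0.17 over the 10 genes and -0.0034 over all tested genes. The median size of the change, whatever its sign, was 0.35 for the 10 genes and 0.24 for all tested genes. The mutant libraries all lay on one side of the wildtype libraries for each of the 10 genes, as they did for 68.1% of all tested genes (33.7% higher and 34.5% lower in mutants).

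**Figure D1:**
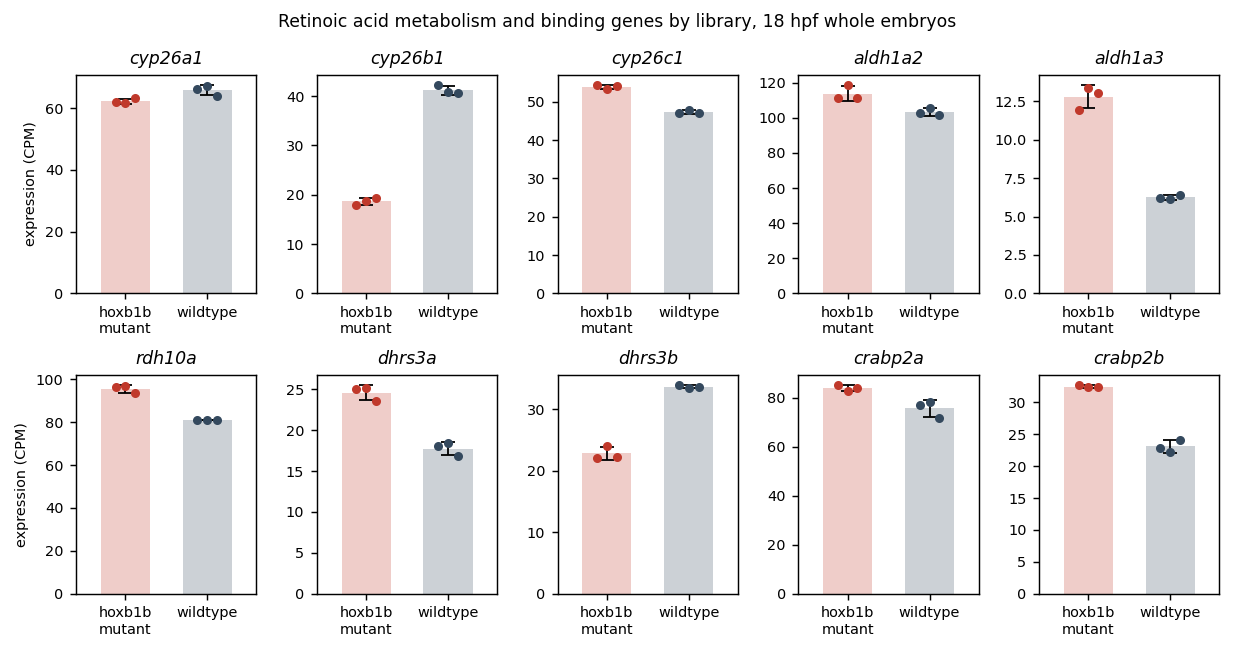
Expression in CPM (vertical axes, each starting at 0) of the 10 RA genes, with mutant libraries on the left and wildtype libraries on the right of each panel. Points are libraries, bars are means and error bars are SDs (n = 3 each). The libraries of the genotypes do not overlap in any panel, and on the fold scale the gap between the bars is widest for *cyp26b1* (18.7 CPM in mutants, 41.2 CPM in wildtype) and *aldh1a3* (12.8 CPM in mutants, 6.24 CPM in wildtype).

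The enzymes that break down RA did not change as one. *cyp26b1*, which in zebrafish is expressed in rhombomeres of the hindbrain, stood at 18.0, 18.7 and 19.4 CPM in mutant libraries, against 42.2, 40.7 and 40.6 CPM in wildtype libraries. The highest mutant library was 21.2 CPM below the lowest wildtype library. The mutant mean was 45.4% of the wildtype mean, and the log2 fold change was -1.13 (SE 0.05, edgeR adjusted p = 2.47e-18). Only 6.48% of all tested genes had a larger change in either direction. The counts behind these values were 349 to 574 in mutant and 792 to 990 in wildtype libraries, whole numbers in each.

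*cyp26a1* encodes the enzyme of the family that is itself the classic RA-induced gene, and it is expressed in the tailbud and the anterior neural plate. It stood at 61.9, 61.7 and 63.2 CPM in mutant libraries, against 66.3, 67.3 and 64.1 CPM in wildtype libraries. The libraries did not overlap, but the highest mutant library was within 1 CPM of the lowest wildtype library. The log2 fold change was -0.081 (SE 0.03, edgeR adjusted p = 0.0369), a mean 5.45% lower in the mutants. This call was lost in 4 of the 6 fits that left out a library, with an adjusted p of 0.0962 without mutant replicate 1, 0.111 without mutant replicate 2, 0.0898 without wildtype replicate 1 and 0.135 without wildtype replicate 2 (edgeR). It was also lost with total count scaling, where the log2 fold change was -0.035, and in the DESeq2 test (adjusted p = 0.147).

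*cyp26c1*, the remaining gene of the family, is expressed in anterior rhombomeres close to *cyp26b1*. It stood at 54.3, 53.4 and 54.2 CPM in mutant libraries, against 47.2, 48.0 and 47.1 CPM in wildtype libraries. Its log2 fold change was 0.19 (SE 0.04, edgeR adjusted p = 5.16e-05). Its direction was thus opposite to that of *cyp26b1*, while 58.7% of all tested genes changed by more.

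Ratios between genes within a library do not depend on how libraries are scaled to each other. Otherwise they restate the log2 fold changes of both genes, so they are not separate evidence. The count of *cyp26a1* was 3.45, 3.29 and 3.26 times that of *cyp26b1* in mutant libraries, against 1.57, 1.65 and 1.58 times in wildtype libraries. For *cyp26c1* over *cyp26b1*, a ratio added after the data were seen, the values were 3.02, 2.85 and 2.79 in mutant libraries and 1.12, 1.18 and 1.16 in wildtype libraries. Both ratios were higher in every mutant library than in any wildtype library. The mutant mean of the log2 ratio exceeded the wildtype mean by 1.06 for *cyp26a1* over *cyp26b1* and by 1.33 for *cyp26c1* over *cyp26b1*. Counts are not divided by transcript length, so these ratios compare libraries and not the levels of the genes.

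The genes for RA synthesis were all higher in the mutants, by very different amounts. *aldh1a3*, which encodes a retinaldehyde dehydrogenase of the ventral eye and the ear, had the lowest counts of the 10 genes. It stood at 11.9, 13.4 and 13.1 CPM in mutant libraries, against 6.19, 6.13 and 6.41 CPM in wildtype libraries, which is 232 to 387 counts in mutants and 125 to 145 counts in wildtype. Every mutant library was well above every wildtype library. The log2 fold change was 1.04 (SE 0.08, edgeR adjusted p = 4.49e-12), just past 2-fold, with a 95% interval that starts at 0.88 and so includes 2-fold itself. It stayed above 2-fold with each library left out, between 1.02 and 1.09 on the log2 scale. In the RefSeq annotation of the GRCz12tu assembly, which is not the build of the counts, the span of *aldh1a3* overlaps those of *lrrk1* and *LOC141375297*, names under which the table has no entry. The libraries were stranded, but the strand setting of the counting is not given in the sources used here.

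*aldh1a2*, the main RA-making enzyme of the early embryo, is expressed in the mesoderm flanking the hindbrain and in the somites. It stood at 111, 119 and 111 CPM in mutant libraries, against 102, 106 and 101 CPM in wildtype libraries. The distance between the nearest libraries of the genotypes was 5.76 CPM, and the SDs were 4.22 CPM in mutants and 2.18 CPM in wildtype. The log2 fold change was 0.14 (SE 0.03, edgeR adjusted p = 0.000218), and 67.6% of all tested genes changed by more.

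*rdh10a*, the retinol dehydrogenase of the first step, is known from the paraxial mesoderm. It stood at 96.2, 96.7 and 93.5 CPM in mutant libraries, against 80.8, 80.9 and 80.8 CPM in wildtype libraries. Its log2 fold change was 0.24 (SE 0.03, edgeR adjusted p = 6.94e-08), a mean 18.1% higher in the mutants. Its paralog *rdh10b* averaged 28.6 CPM in mutant and 27.1 CPM in wildtype libraries and did not pass (log2 fold change 0.08, adjusted p = 0.129 from edgeR). Among the genes of synthesis, the ratio of *aldh1a2* to *aldh1a3* counts was 9.32, 8.86 and 8.53 in mutant libraries and 16.6, 17.2 and 15.8 in wildtype libraries.

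The paralogs *dhrs3a* and *dhrs3b*, whose products return retinaldehyde to retinol, went in opposite directions. *dhrs3a* stood at 25.1, 25.2 and 23.6 CPM in mutant libraries, against 18.0, 18.4 and 16.9 CPM in wildtype libraries, a log2 fold change of 0.46 (SE 0.06, edgeR adjusted p = 2.89e-08). *dhrs3b* stood at 22.1, 24.0 and 22.3 CPM in mutant libraries, against 33.9, 33.5 and 33.6 CPM in wildtype libraries, a log2 fold change of -0.56 (SE 0.05, edgeR adjusted p = 2.95e-11). *dhrs3a* was thus higher, and *dhrs3b* lower, in every mutant library than in any wildtype library. Within a library, the count of *dhrs3a* was 1.14, 1.05 and 1.06 times that of *dhrs3b* in mutants, against 0.531, 0.549 and 0.502 times in wildtype embryos. The mutant mean of this log2 ratio exceeded the wildtype mean by 1.03. Summed, the CPM of the pair lay between 45.9 and 49.2 in mutant libraries and between 50.5 and 51.9 in wildtype libraries. The sum was thus lower in every mutant library than in any wildtype library. CPM is not divided by transcript length, so the sum does not measure the combined level of the paralogs. Counts of both genes were whole numbers in every library.

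**Figure D2:**
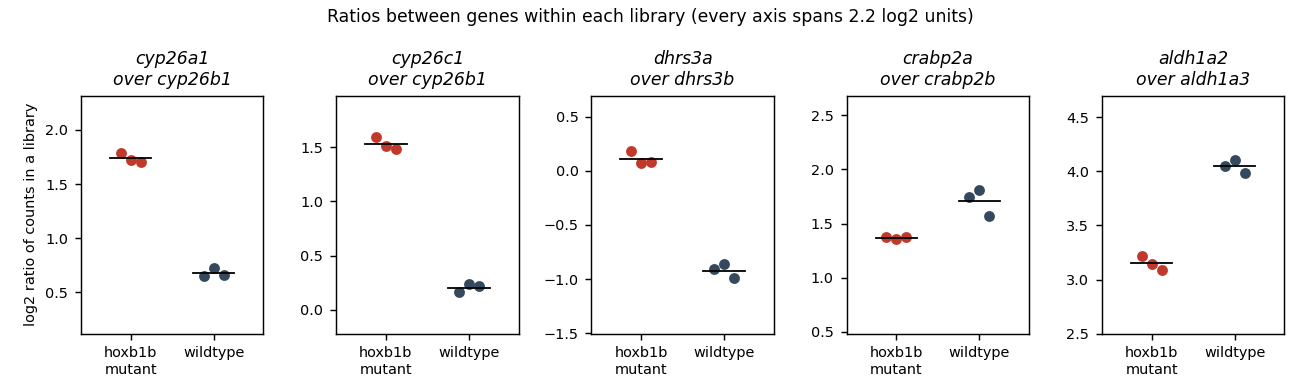
Log2 ratio of the counts of a pair of RA genes within each library (vertical axes, every axis spanning the same number of log2 units), with mutant libraries on the left and wildtype libraries on the right. Points are libraries and lines are means (n = 3 each). The ratios over *cyp26b1* and that of *dhrs3a* over *dhrs3b* are higher in mutants (the last at a mean of 0.11, against -0.92 in wildtype), while *crabp2a* over *crabp2b* and *aldh1a2* over *aldh1a3* are lower in mutants.

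The RA-binding genes were both higher in the mutants. *crabp2b* stood at 32.7, 32.4 and 32.3 CPM in mutant libraries, against 22.9, 22.3 and 24.2 CPM in wildtype libraries. Its mean was 40.6% higher in the mutants, a log2 fold change of 0.49 (SE 0.05, edgeR adjusted p = 4.64e-10). *crabp2a*, which is known from the hindbrain, stood at 85.0, 82.7 and 83.8 CPM in mutant libraries, against 76.9, 78.1 and 71.6 CPM in wildtype libraries. Its log2 fold change was smaller, 0.15 (SE 0.03, edgeR adjusted p = 0.000358). The count of *crabp2a* was 2.60, 2.56 and 2.59 times that of *crabp2b* in mutant libraries and 3.36, 3.51 and 2.97 times in wildtype libraries. Fractional counts occurred for both genes, and for *cyp26c1*, *aldh1a2* and *rdh10a*, which means that some of their reads were shared out between genes by the counting program. The other 5 genes had whole counts in every library.

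**Figure D3:**
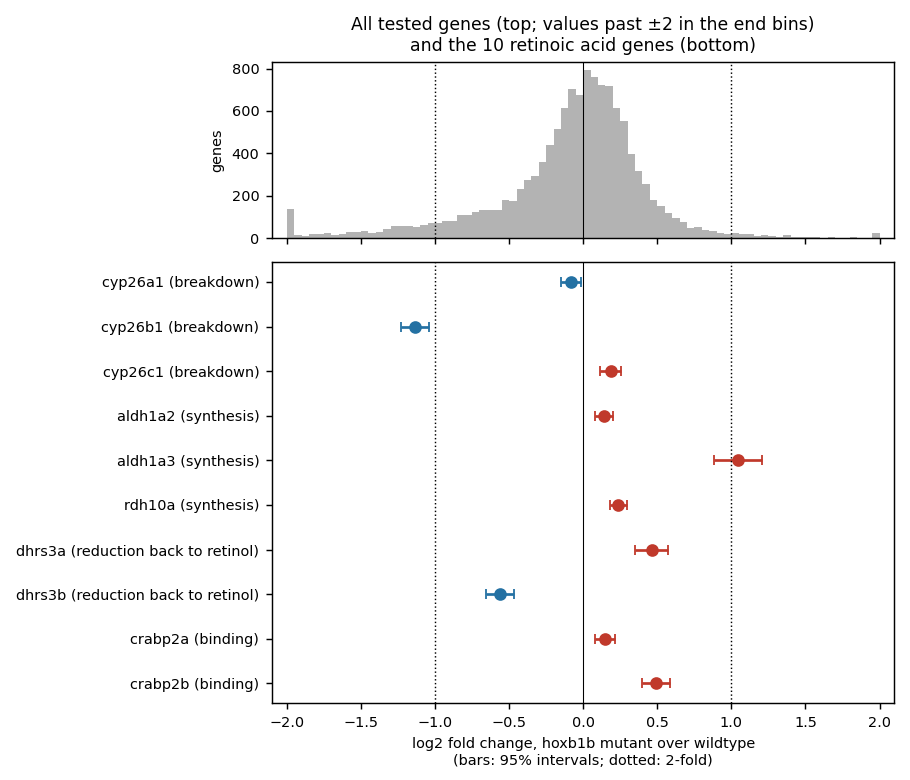
The upper panel counts all tested genes by log2 fold change, mutant over wildtype (values past ±2 are in the end bins), and the lower panel gives the 10 RA genes on the same axis. Points are estimates, bars are 95% intervals, red marks genes higher and blue genes lower in mutants, and dotted lines mark 2-fold. *cyp26b1* at -1.13 and *aldh1a3* at 1.04 lie past the dotted lines, and the other 8 genes lie between -0.56 and 0.49.

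Of the 10 genes, 5 changed by less than 0.25 on the log2 scale. The largest of these changes was that of *rdh10a*, and 49.5% of all tested genes changed by more, so such small changes were common. *dhrs3a*, *dhrs3b* and *crabp2b* lay between those 5 genes and the pair past 2-fold. Over the 10 genes, the coefficient of variation between libraries ran from 0.622% to 5.94% in mutants (median 2.74%) and from 0.0504% to 4.54% in wildtype (median 2.30%). Counting alone gives a median of 3.21% in mutants and 3.23% in wildtype, so the medians were no larger than counting gives. The widest excess, in percentage points, was that of *crabp2a* in wildtype, at 4.54% against 2.47% from counting. If the pools of embryos are instead assumed to vary with a coefficient of variation of 0.2, *cyp26b1* (adjusted p = 6.87e-05) and *aldh1a3* (adjusted p = 0.00069, edgeR's likelihood ratio test) still passed, and the other 8 genes did not. By the same rule 1590 of the 12471 tested genes passed, 1003 of them with a change above 2-fold. The SE was then 0.24 to 0.25 for each RA gene, so passing depended mainly on the size of the change.

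The receptors of RA were examined as the next step of the pathway. RA receptors (*rar* genes) bind RA and act on DNA as pairs with retinoid X receptors (*rxr* genes). Of 10 receptor genes tested, 7 were higher, 0 lower and 3 did not pass, with a median log2 fold change of 0.17, and 0 of them changed by more than 2-fold. Among all tested genes 32.6% were higher and 33.6% lower. *rarga* averaged 88.0 ± 1.07 CPM in mutant and 66.7 ± 2.21 CPM in wildtype libraries (SD, n = 3 each). The log2 fold change was 0.40 (SE 0.03, edgeR adjusted p = 9.74e-12). *rargb* had the largest change, 0.70 (SE 0.12), at 5.91 CPM in mutant and 3.65 CPM in wildtype libraries. *rxraa* and *rxrba* had log2 fold changes of 0.38 and 0.30. *rxrab*, *rxrga* and *rxrgb* did not pass, at 0.09, 0.05 and -0.13.

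Among genes for receptor cofactors, the coactivator gene *ncoa2* changed by 0.40 and the corepressor gene *ncor1* by -0.10 on the log2 scale, each with an adjusted p under 0.05 from edgeR.

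Genes known in vertebrates to respond to RA moved in both directions. Of 12 tested, 4 were higher, 2 were lower and 6 did not pass, with a median log2 fold change of -0.01. Among all tested genes 32.6% were higher and 33.6% lower. *hnf1ba*, a transcription factor gene of r5/r6, averaged 36.0 ± 0.673 CPM in mutant and 22.8 ± 0.405 CPM in wildtype libraries (SD, n = 3 each). The log2 fold change was 0.66 (SE 0.05, edgeR adjusted p = 3.81e-13). *hoxd4a*, a hindbrain *hox* gene, changed by 0.39, and *nr2f1a*, an orphan nuclear receptor gene, by -0.31 (SE 0.03, edgeR adjusted p = 1.14e-10). *hoxb6a* changed by 0.19 and *hoxb5b* by -0.18. *hoxb1b*, at 0.29, is 1 of the 4 higher genes but is also the mutated gene. *hoxb4a*, *hoxb5a*, *hoxb6b*, *hoxb1a*, *mafba* and *tbx5a* did not pass.

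Genes for the uptake, storage, transport and other conversions of retinoids were searched as 41 symbols, of which 30 are listed and 26 were tested. Of these, 6 were higher, 10 were lower and 10 did not pass, with a median log2 fold change of -0.16. A change above 2-fold was found in 8 of them, 2 higher and 6 lower. Among all tested genes 32.6% were higher and 33.6% lower, and 8.36% passed with a change above 2-fold. *rlbp1a*, which encodes a retinaldehyde-binding protein of the eye, had 9 to 14 counts in mutant and 38 to 57 counts in wildtype libraries, a log2 fold change of -2.28 (SE 0.26). *rdh8b*, a retinol dehydrogenase gene, had 15 to 18 counts in mutant and 39 to 46 counts in wildtype libraries, a log2 fold change of -1.45 (SE 0.23). *bco2l*, named as a carotenoid oxygenase, had 54 to 83 counts in mutant and 12 to 26 counts in wildtype libraries, a log2 fold change of 1.52 (SE 0.20). *rbp2a*, a cellular retinol-binding protein gene, had 50 to 82 counts in mutant and 15 to 30 counts in wildtype libraries, a log2 fold change of 1.38 (SE 0.20). The adjusted p of these genes was at most 2.85e-06 (edgeR), but all rest on few reads. Each passed the rule of a mean above 1 CPM only through the genotype in which it was higher, since in the other genotype its mean was at most 0.99 CPM, so its inclusion favours a large change.

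The plasma carrier of retinol was better covered and is named here after its value was seen. *rbp4* stood at 43.5, 42.6 and 44.8 CPM in mutant libraries, against 88.1, 87.4 and 90.8 CPM in wildtype libraries. Its log2 fold change was -1.02 (SE 0.03, edgeR adjusted p = 1.14e-20), close to that of *rbp4l*, at -1.03 (SE 0.08). *stra6*, which encodes a membrane receptor for the carrier, averaged 29.6 CPM in mutant and 30.9 CPM in wildtype libraries and did not pass (log2 fold change -0.06, adjusted p = 0.295 from edgeR). *lrata*, an enzyme gene of retinol storage, did not pass either, at -0.16.

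**Figure D4:**
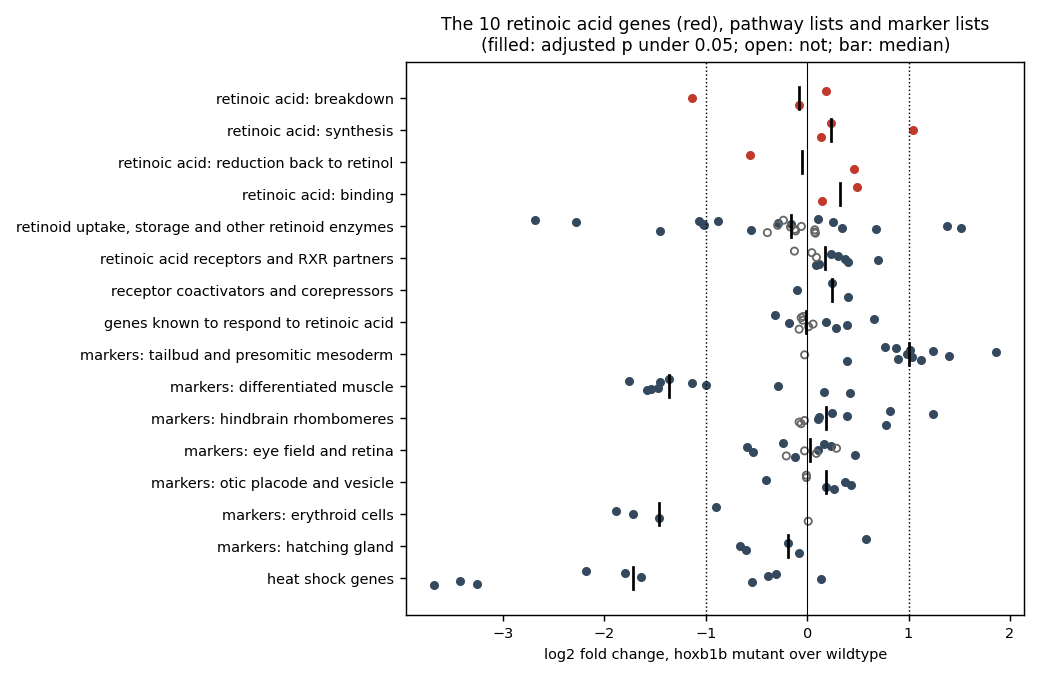
Log2 fold change, mutant over wildtype (horizontal axis), of every tested gene in the 4 groups of RA genes (red), the pathway lists, the marker lists and the heat shock genes. Filled points have an adjusted p under 0.05, open points do not, black bars are medians and dotted lines mark 2-fold. The medians of the 4 groups of RA genes run from -0.081 to 0.32, those of the tailbud, differentiated muscle and erythroid markers are 1.00, -1.36 and -1.46.

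Markers of several tissues in which RA genes are expressed moved with genotype, and their part in the values above was not tested. For comparison, 32.6% of all tested genes were higher and 33.6% lower by the adjusted p. The summed levels of this and the next lists are sums of CPM, not divided by transcript length. Genes with many counts weigh most in them. Of 12 tailbud and presomitic mesoderm markers, 11 were higher in the mutants, and their summed level was 693 to 702 CPM in mutant and 354 to 362 CPM in wildtype libraries. *tbx6*, a transcription factor gene of presomitic mesoderm, had a log2 fold change of 1.24 and *tbx16* of 1.13, while *cyp26a1*, which is also expressed in the tailbud, had one of -0.081. Of 11 muscle markers, 9 were lower in the mutants and 2 were higher, with summed levels of 5583 to 5689 CPM in mutant and 13638 to 13844 CPM in wildtype libraries. The muscle structural genes *mylpfa* and *tnnt3a* had log2 fold changes of -1.57 and -1.76, while *aldh1a2*, which is expressed in somites, had one of 0.14. The 2 higher genes, named after their values were seen, were *myod1* and *myog*, regulators of muscle differentiation, at 0.42 and 0.17.

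The next 3 lists are also read beside the 32.6% of all tested genes that were higher and the 33.6% that were lower. Of 10 rhombomere markers, 7 were higher in the mutants and 0 lower, with summed levels of 509 to 521 CPM in mutant and 422 to 424 CPM in wildtype libraries. They included *mpz*, *irx7* and *egr2b*, a transcription factor gene of r3 and r5, at 1.24, 0.82 and 0.78 on the log2 scale. Those that did not pass, *hoxb1a*, *hoxb2a* and *mafba*, were at -0.08, -0.03 and -0.06. The 10 markers ran from -0.08 to 1.24, and *cyp26b1* was at -1.13. The values of 12 eye markers ran from -0.60 to 0.47, with 4 higher and 4 lower, and their summed levels were 298 to 305 CPM in mutant and 293 to 310 CPM in wildtype libraries. The 7 otic markers tested ran from -0.41 to 0.43, with 4 higher and 1 lower, and their summed levels were 240 to 247 CPM in mutant and 202 to 206 CPM in wildtype libraries. The largest values in this sum were those of *dlx3b*, *otx1b* and *pax2a*. The last is not particular to the ear, as the paper also uses *pax2* to mark the midbrain-hindbrain boundary. Whether *dlx3b* and *otx1b* are particular to the ear was not checked here. The otic markers *hmx2* and *hmx3a*, named after their values were seen, did not pass, at -0.007 and -0.008. *aldh1a3* was at 1.04. Whether the amount of hindbrain, eye or ear tissue had a part in the values of *cyp26b1* and *aldh1a3* was not tested.

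Globin and heat shock genes also separated the genotypes, while 33.6% of all tested genes were lower and 32.6% higher. Of 5 erythroid markers, 4 were lower in the mutants, with summed levels of 530 to 541 CPM in mutant and 1696 to 1722 CPM in wildtype libraries. The remaining marker, named after its value was seen, was *gata1a*, which did not pass (log2 fold change 0.01, adjusted p = 0.909 from edgeR). Of 5 hatching gland markers, 4 were lower and 1 was higher, with summed levels of 3510 to 3610 CPM in mutant and 4571 to 4693 CPM in wildtype libraries. Of 10 heat shock genes, 9 were lower in the mutants, with summed levels of 1817 to 1834 CPM in mutant and 4147 to 4247 CPM in wildtype libraries. Markers from the tissue lists, among them *mylpfa*, *tbx6*, *egr2b*, *rx3*, *pax2a* and *hbae1*, had counts in every library. A difference in stage or in stress between the embryo pools and an effect of the genotype cannot be told apart with this design.

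The genes whose pattern over the 6 libraries was most like that of *cyp26b1* were *tmem182a*, *sh3bgr* and *aldh6a1*, at Euclidean distances of 0.0656, 0.0665 and 0.0681 between centred log2 CPM values. Their log2 fold changes were -1.14, -1.11 and -1.17. Those nearest to *aldh1a3* were *fgf8a*, *si:dkeyp-89c11.2* and *adhfe1*, at distances of 0.0851, 0.122 and 0.133, with log2 fold changes of 1.01, 1.02 and 1.11. With 3 libraries of each genotype, such likeness mainly reflects the difference between the genotypes.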

How the data were processed

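The authors deposited estimated counts, not normalized, for 13466 genes in each of the 6 libraries. The submitters' processing notes name RSEM 1.2.28, FastQC, DESeq2 and the builds GRCz10 and danRer7, and the paper's methods name the Dolphin web interface. The role of each build is not given in the sources used here. The authors also deposited an adjusted p-value, a log2 fold change and the same change as a ratio from their own comparison, which were not used. Genotypes came from the sample titles, and columns were joined to samples through the sample descriptions.

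Rounded counts were fitted with edgeR 4.0.16 under R 4.3.3 (filterByExpr, which left 12471 genes, TMM, glmQLFit and glmQLFTest, genotype as the only factor). A standard error is the log2 fold change divided by the square root of F. Calls needed an adjusted p under 0.05, and the study's 2-fold criterion was given beside it. The fit was tested on simulated data. Libraries of a genotype differed by more than counting noise over all genes (chi-square of 1.48 to 2.07 per degree of freedom), so none was counted as a copy of another. Such values cannot show whether the libraries came from separate pools of embryos.

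The genes and lists were chosen with earlier results of these data known. Named genes are the 10 RA genes, *hoxb1b*, and in every other list up to 4 genes with the largest change among those past the adjusted p, above 1 CPM and without overlap of libraries. For the RA genes past both criteria, the 3 nearest genes by Euclidean distance are also named. Other genes were named after their values were seen, and some genes of the lists are not reported here. Symbols were matched as written, and gene order came from RefSeq (GRCz12tu). Alternatives were other scalings, DESeq2 1.42.0, other filters, unrounded counts, a replicate block, an assumed coefficient of variation of 0.2 between pools, and leaving out each library. Figures used Python 3.11.15 with matplotlib 3.10.9.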

Additional observations from a re-analysis of the deposited data

How the results depend on the processing

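Directions of the 10 RA genes held in all 15 alternatives, and the log2 fold change stayed between -1.16 and -1.09 for *cyp26b1* and between 1.02 and 1.09 for *aldh1a3*. The call of *cyp26a1* was lost at -0.035 with total count scaling (adjusted p = 0.372), -0.078 in the DESeq2 test (adjusted p = 0.147), -0.072 with no filter (adjusted p = 0.0659) and -0.080 with the replicate block (adjusted p = 0.0503 from edgeR), and its values with a library left out ran from -0.098 to -0.065. Libraries with the same replicate number in their titles were not paired by the data, as their deviations correlated at 0.065, 0.043 and -0.032. The replicate block used the numbers of the titles and changed no other call. The deposited columns number the mutant libraries differently. Over every combination of a mutant and a wildtype library, the correlation ran from -0.105 to 0.074. With a coefficient of variation of 0.2 assumed between pools, 8 genes lost their call, at -0.081 for *cyp26a1*, 0.19 for *cyp26c1*, 0.14 for *aldh1a2*, 0.24 for *rdh10a*, 0.47 for *dhrs3a*, -0.56 for *dhrs3b*, 0.15 for *crabp2a* and 0.49 for *crabp2b*. That left 2 RA genes, 1 of them higher, and 1590 of all tested genes past the adjusted p, against 8254. The value of 0.2 was assumed, and the spread between separate pools was not measured here. Read depth limits *aldh1a3* most, with 125 to 387 counts in a library.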

Other observations

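The protein-coding genes next to each RA gene in the RefSeq gene order (GRCz12tu) were looked at after the data were seen. All 10 RA genes were found there, and 10 of their 20 flanking genes were tested. Of those 10, 8 had an adjusted p under 0.05 (edgeR), a rule that 66.2% of all tested genes passed, and 0 changed by more than 2-fold. *cyp26b1*, at -1.13, lies between *exoc6b*, at -0.10 (SE 0.04), and *dysf*, a muscle membrane repair gene, at -0.50 (SE 0.07). *cyp26a1* lies between *reep3b*, at 0.31, and *exoc6*, at 0.16, and *cyp26c1* between *slc22a15*, at -0.23, and *reep3a*, at -0.66. In these 3 cases the RA gene and its tested neighbours changed by different amounts, and for *cyp26a1* and *cyp26c1* in opposite directions. *dhrs3a*, at 0.46, lies next to *igsf21b*, which changed by a like amount, 0.44 (SE 0.25), but did not pass. *rdh10a*, at 0.24, lies next to *stau2*, at -0.18, and *crabp2b*, at 0.49, between *mrps21*, at 0.11, and *scamp3*, at -0.54.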
